A study of Mus musculus with 13 samples.

Results

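Mitochondrially encoded transcripts, the RNAs made from the small circular genome inside mitochondria, were followed across 3 groups of mouse CD4+ T cell libraries. All entries of the deposited count table whose symbol begins with mt- were taken, which gave 37 of 55774 entries. They comprise 13 mRNAs, 2 ribosomal RNAs (rRNAs) and 22 transfer RNAs (tRNAs), and all 37 lie on chromosome M in the gene annotation. The filter on low counts left 16 of them for testing, namely the 13 mRNAs, both rRNAs and the tRNA mt-Tq. The other 21 tRNAs were too sparse to be tested and are described by their counts.

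The T cells were naive CD4+ cells from spleens of female mice on the NOD/ShiLtJ strain, whose genotype gives the TcraBDC2.5 and TcrbBDC2.5 transgenes, so every group carries the BDC2.5 T cell receptor. In the STZ-macrophage co-culture (n = 5), T cells spent 96 hours with macrophages enriched by magnetic beads from the islets of NOD donors. Those donors had received 1 low dose of streptozotocin (STZ), a drug that kills insulin-producing beta cells, when 4 weeks old, and islets were taken 10 days later at 5.5 weeks. The control-macrophage co-culture (n = 4) differed in that its donors received buffer. The third group was T cells alone (n = 4), and the labels do not say whether they were kept in culture, so any comparison with it covers culture, contact with macrophages, time and any difference in sorting together. Live cells positive for CD45, Thy1.2 and CD4 were sorted after co-culture, and the labels do not say whether cells alone were sorted in the same way. The labels give 2 collection days as batches: day 1 held STZ-macrophage replicates 1 and 5, control-macrophage replicates 1, 2 and 4 and all cells alone, and day 2 held STZ-macrophage replicates 2, 3 and 4 and control-macrophage replicate 3. Replicates are called biological, but nothing ties them to separate mice or cultures, so p-values measure the spread between these libraries.

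Mammalian mitochondrial DNA is transcribed along both strands into long precursors by the polymerase POLRMT with the factors TFAM and TFB2M, and the tRNAs that lie between the other genes are cut out to release them. The mRNAs encode core subunits of complexes I, III, IV and V of oxidative phosphorylation, which work beside many more subunits encoded in the nucleus. mt-Rnr1 and mt-Rnr2 are the rRNAs of the small and the large subunit of the mitochondrial ribosome, and mt-Nd6 is the one mRNA read from the strand opposite to all the other mRNAs. Activated T cells are known for enlarging their mitochondrial mass.

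Several of these genes have nearly identical copies in the nuclear genome, which decides how far their counts can be read. On chromosome 1, 7 pseudogenes lie side by side on the minus strand, at chr1:24611535-24616197 in GRCm38, and copy stretches of mt-Nd4, mt-Nd4l, mt-Nd3, mt-Co3, mt-Atp6, mt-Co2 and mt-Co1 over 294 to 876 bases. In 5 of the 7 the aligned bases are identical to the mitochondrial gene, and the other 2 differ by 1 base each, T3C in the copy of mt-Nd3 and A1066T in the copy of mt-Co1. Positions count from 1 at the first base of the mitochondrial gene, whose base is written first. The reads had 150 bases at each end, so a read pair inside an identical stretch cannot be assigned to either source. The first pair of sequences shows the difference between mt-Nd3 and its copy in capitals, and the second shows 60 identical bases of mt-Co2 and its copy. The fifth sequence gives in capitals the 43 bases that mt-Atp8 and mt-Atp6 share in different reading frames. Both rRNAs, which carry the clearest differences between the groups, are shown around their longest run of A (capitals), since the library kit starts cDNA from stretches of A, and mt-Tq, the one tRNA tested, is shown whole. Such runs are not particular to the rRNAs. The longest had 5 bases in mt-Rnr1 and 7 in mt-Rnr2, against 3 (mt-Nd6) to 8 (mt-Nd2) in the mRNAs. All were read from the gene annotation's transcripts on GRCm38, which represents another strain than NOD.
mt-Nd3, chrM:9459-9491, plus strand: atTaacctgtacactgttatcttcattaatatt
Gm28438, chr1:24613087-24613119, minus strand: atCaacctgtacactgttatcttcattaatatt
mt-Co2, chrM:7013-7072, plus strand: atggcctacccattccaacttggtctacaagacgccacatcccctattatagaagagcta
Gm28661, chr1:24615506-24615565, minus strand: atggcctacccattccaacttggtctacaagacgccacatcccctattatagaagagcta
mt-Atp8 and mt-Atp6, chrM:7915-7981, plus strand: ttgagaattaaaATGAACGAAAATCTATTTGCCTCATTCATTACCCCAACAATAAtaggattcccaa
mt-Rnr1, chrM:685-729, plus strand: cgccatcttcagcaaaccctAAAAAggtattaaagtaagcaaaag
mt-Rnr2, chrM:1468-1514, plus strand: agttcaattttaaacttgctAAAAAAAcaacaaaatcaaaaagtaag
mt-Tq, chrM:3772-3842, minus strand: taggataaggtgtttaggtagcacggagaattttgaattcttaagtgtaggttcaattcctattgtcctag

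Libraries held 17.3 to 61.3 M counts, so that 3 counts correspond to 0.0490 to 0.173 CPM, the count per M counts of the library. T cell markers were present in every library, and their summed level over 10 genes was 7686 to 10138 CPM in STZ-macrophage co-culture, 9958 to 16237 CPM in control-macrophage co-culture and 6420 to 11801 CPM in cells alone. The 15 macrophage markers summed to 24.1 to 117 CPM, 8.00 to 61.0 CPM and 3.54 to 13.3 CPM in the same 3 groups, with 0, 1 and 1 of the 15 at 0 in every library of the group. The 8 B cell markers summed to 149 to 198 CPM in STZ-macrophage co-culture, 593 to 766 CPM in control-macrophage co-culture and 722 to 1673 CPM in cells alone, whose sorting is not stated, with 0, 2 and 0 of the 8 at 0 in every library of the group, and the 9 islet endocrine markers to 0.693 to 160 CPM, 0.0659 to 1.76 CPM and 0 to 0.790 CPM in the same groups, with 1, 3 and 7 of the 9 at 0 in every library. The part of such other cells in the results was not tested. One library stood apart for the mitochondrial transcripts themselves: control-macrophage replicate 3, the only control-macrophage library of day 2, had the highest level of the 9 co-cultures for 13 of the 16 members tested. In bulk RNA, fewer cells of a type and less RNA per cell cannot be told apart.

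mt-Co3 of complex IV and mt-Atp6 of complex V led the levels. Per kilobase of transcript, mt-Co3, a core subunit of cytochrome c oxidase, averaged 2935 ± 347 CPM in STZ-macrophage co-culture, 2804 ± 1324 CPM in control-macrophage co-culture and 2473 ± 889.9 CPM in cells alone (SD, n = 5, 4 and 4). mt-Atp6, which forms part of the proton channel of ATP synthase, averaged 2559.5 ± 270.4, 2384 ± 1165 and 2497 ± 892 CPM per kilobase in the same order of groups. Both exceeded every other member in each group by mean. The large rRNA mt-Rnr2 averaged 1151 ± 279 CPM per kilobase in STZ-macrophage co-culture, 989.8 ± 429.6 in control-macrophage co-culture and 2285 ± 641 in cells alone, which placed it the seventh in both co-cultures and the third in cells alone, where its spread overlapped with that of mt-Co3 and mt-Atp6. This order leaves out reads given to nuclear copies. With them added, mt-Atp6 exceeded mt-Co3 by mean in every group, at 4544 against 4249 CPM per kilobase in STZ-macrophage co-culture. The values were 4325 against 4028 in control-macrophage co-culture and 4823 against 3856 in cells alone. In cells alone mt-Co1 (2381.5) then also stood above mt-Rnr2. At the low end, mt-Nd3, a small complex I subunit, averaged 33.4 ± 5.76, 26.2 ± 14.4 and 19.8 ± 2.96 CPM per kilobase. That low level depends on the nuclear copy: with the reads given to its copy added, mt-Nd3 averaged 257 ± 47.4 CPM per kilobase in STZ-macrophage co-culture, 220.1 ± 92.9 in control-macrophage co-culture and 171 ± 47.5 in cells alone.

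**Figure D1:**
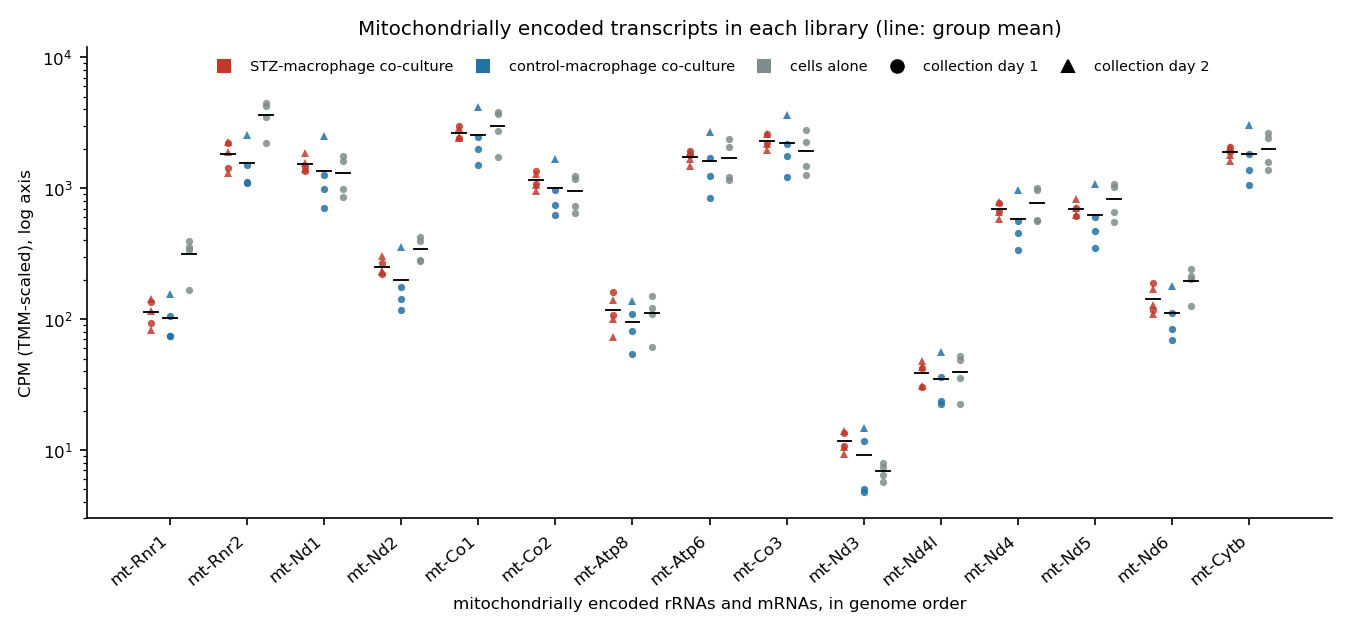
Level of the 13 mRNAs and both rRNAs of the mitochondrial genome in every library, in CPM on a log axis, with the STZ-macrophage co-culture left of the control-macrophage co-culture and cells alone last, and collection day given by the marker. mt-Rnr1 is lower in all 9 co-cultures than in the 4 libraries of cells alone, while the ranges of the STZ-macrophage and control-macrophage libraries overlap for all 15. How many of all genes show either pattern was not counted.

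T cells kept with macrophages of STZ-treated donors did not differ detectably from those kept with macrophages of buffer-treated donors in any mitochondrially encoded transcript. By edgeR's quasi-likelihood test with Benjamini-Hochberg adjustment over 15781 genes and collection day in the model, 0 of 16 passed an adjusted p of 0.05, against 0.323% of all genes, and 0 had an unadjusted p under 0.05. DESeq2, as another tool, also called 0 of the 16, against 4.19% of the genes it gave an adjusted p, and edgeR with the 2 co-culture groups alone in the fit called 0 against 18.1%. The log2 fold changes of the 13 mRNAs and both rRNAs lay between -0.02 and 0.30, with standard errors of 0.25 to 0.35 and adjusted p of 0.517 to 0.997. Their median over the 16 members was 0.07, against -0.13 over all genes tested. The ranges of the 2 groups overlapped for all 16 members. How many of all genes had overlapping ranges was not counted, so this is a description only.

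Individual members show how wide the control-macrophage group was. mt-Co1, the catalytic subunit of cytochrome c oxidase, had 2425, 2449, 2893, 2431 and 2983 CPM in STZ-macrophage replicates 1 to 5, against 1499, 1984, 4174 and 2477 CPM in control-macrophage replicates 1 to 4. The control-macrophage libraries held both the lowest and the highest value. mt-Cytb, the one mitochondrially encoded subunit of complex III, had 1878, 1626, 2074, 1794 and 2070.5 CPM in STZ-macrophage co-culture and 1058, 1389, 3053 and 1833 CPM in control-macrophage co-culture, and again replicate 3 of the control-macrophage group was the highest. Its log2 fold change was -0.020 (SE 0.27, adjusted p = 0.970, edgeR). Over the 13 mRNAs the ratio of the highest to the lowest library had a median of 1.37 in STZ-macrophage co-culture, 2.89 in control-macrophage co-culture and 1.96 in cells alone. The coefficient of variation had a median of 12.9%, 47.3% and 31.9% in the same groups.

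The 7 mRNAs of complex I, the NADH dehydrogenase, had log2 fold changes of 0.30 (mt-Nd6), 0.29 (mt-Nd3), 0.26 (mt-Nd2), 0.20 (mt-Nd4), 0.058 (mt-Nd4l), 0.055 (mt-Nd1) and 0.048 (mt-Nd5) between STZ-macrophage and control-macrophage co-culture. Those of complex IV were 0.14 for mt-Co2, 0.0020 for mt-Co3 and -0.013 for mt-Co1, and those of ATP synthase were 0.27 for mt-Atp8 and 0.046 for mt-Atp6. The rRNAs mt-Rnr1 and mt-Rnr2 stood at 0.078 and 0.14. None of these was called. Of the 15 mRNAs and rRNAs 13 stood above 0. Without control-macrophage replicate 3 all 15 did, with log2 fold changes of 0.57 to 0.94, and still none was called (adjusted p of 0.107 to 0.537, edgeR). With another co-culture library left out in its place, 3 to 15 of the 15 stood above 0, the fewest without STZ-macrophage replicate 5 (-0.20 to 0.09), and none was called. Whichever co-culture library was left out, mt-Nd2 (0.065 to 0.91), mt-Nd3 (0.089 to 0.92) and mt-Nd4 (0.025 to 0.84) stayed above 0. The other mRNAs and both rRNAs took either sign.

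**Figure D2:**
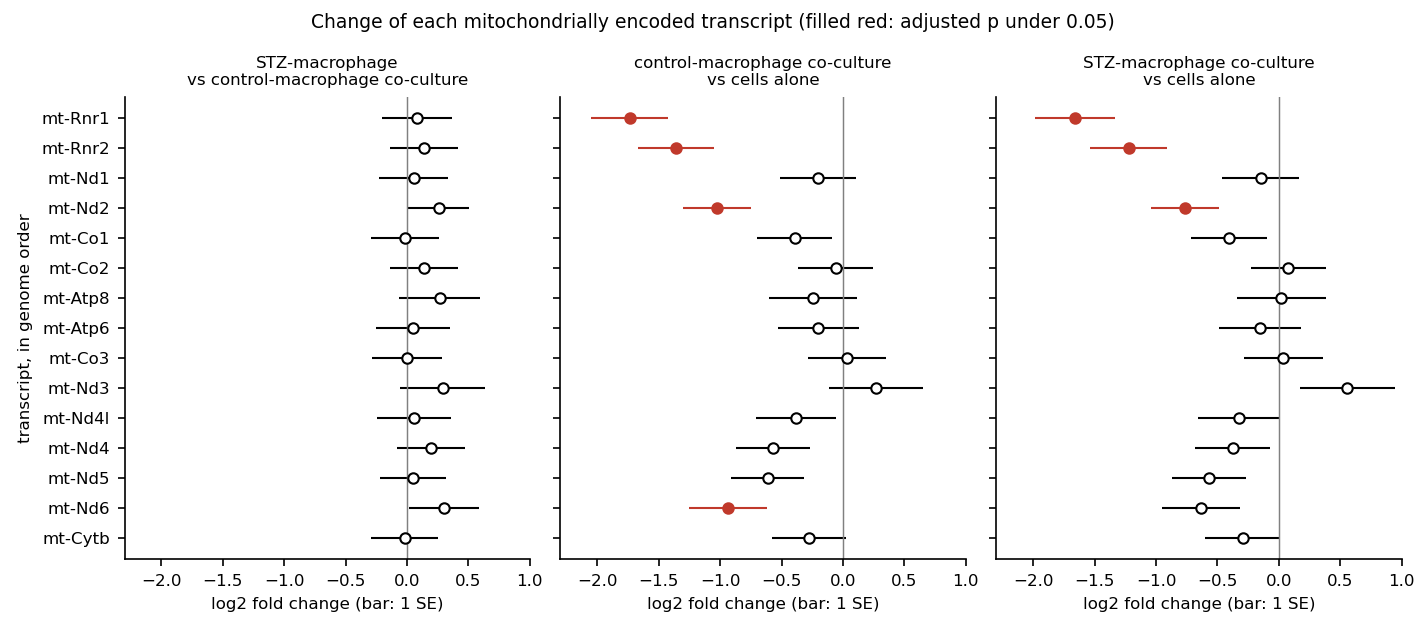
Log2 fold change with its standard error (horizontal bars) of the 13 mRNAs and both rRNAs in the 3 comparisons, with filled points for adjusted p under 0.05. In STZ-macrophage against control-macrophage co-culture no point is filled, and against cells alone the filled points are the rRNAs mt-Rnr1 and mt-Rnr2 with mt-Nd2, and in control-macrophage co-culture also mt-Nd6.

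Both co-cultures were next set against cells alone, a pair of comparisons that share the 4 cells-alone libraries. In control-macrophage co-culture 4 of the 16 members fell and none rose, and in STZ-macrophage co-culture 3 fell and none rose, by edgeR's adjusted p. Of all genes tested, 45.0% were called in the control-macrophage comparison (22.0% lower) and 43.1% in the STZ-macrophage comparison (22.3% lower), so members were called lower about as often as genes at large. The members' median log2 fold change was -0.33 in control-macrophage co-culture and -0.31 in STZ-macrophage co-culture, beside -0.13 and -0.05 over all genes tested.

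Both ribosomal RNAs fell in both co-cultures. mt-Rnr1 (chrM:70-1024, plus strand) had 93.4, 82.4, 143, 115 and 135 CPM in STZ-macrophage replicates 1 to 5, 73.97, 73.9, 155 and 106 CPM in control-macrophage replicates 1 to 4 and 168, 337, 395 and 354 CPM in cells alone. Every co-culture library lay below every library of cells alone. How many of all genes separate in this way was not counted, so this and later statements of ranges that do not overlap are descriptions. The log2 fold change was -1.74 in control-macrophage co-culture (SE 0.32, adjusted p = 0.000784, edgeR) and -1.66 in STZ-macrophage co-culture (SE 0.33, adjusted p = 0.00138), to 0.300 and 0.317 of the level in cells alone. mt-Rnr2 (chrM:1094-2675, plus strand) had 1419, 1313, 2257, 1889 and 2228 CPM in STZ-macrophage co-culture, 1091, 1118, 2544 and 1510.2 CPM in control-macrophage co-culture and 2233, 3496, 4498 and 4233 CPM in cells alone. Here the lowest library of cells alone, replicate 1, lay within the range of the co-cultures. The log2 fold change of mt-Rnr2 was -1.36 in control-macrophage co-culture (SE 0.31, adjusted p = 0.00339, edgeR) and -1.22 in STZ-macrophage co-culture (SE 0.32, adjusted p = 0.00737). With any 1 library of the groups compared left out, both rRNAs stayed called in both comparisons. The highest adjusted p was 0.0480, for mt-Rnr2 in STZ-macrophage co-culture (edgeR). Within day 1, where the libraries of all 3 groups meet, mt-Rnr1 stood at -1.89 in control-macrophage co-culture and -1.46 in STZ-macrophage co-culture (adjusted p = 0.000608 and 0.00786, edgeR), and mt-Rnr2 at -1.54 and -0.99 (adjusted p = 0.00132 and 0.0334).

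Among the mRNAs, mt-Nd2 and mt-Nd6, both of complex I, were the ones called. mt-Nd2 (chrM:3914-4951, plus strand) had 221, 227, 303, 233 and 269.8 CPM in STZ-macrophage co-culture, 118, 141, 354 and 177 CPM in control-macrophage co-culture and 279, 284, 422 and 393 CPM in cells alone, so that 1 library of each co-culture exceeded the lowest of cells alone. It fell by 1.03 on the log2 scale in control-macrophage co-culture (SE 0.28, adjusted p = 0.00912, edgeR) and by 0.77 in STZ-macrophage co-culture (SE 0.28, adjusted p = 0.0396). The call in STZ-macrophage co-culture was lost when STZ-macrophage replicate 1, 2, 3 or 4, or cells-alone replicate 2, 3 or 4, was left out, and over the libraries of both groups left out singly its log2 fold change lay between -1.03 and -0.43 with adjusted p of 0.0229 to 0.249. mt-Nd6 (chrM:13552-14070, minus strand), the mRNA from the opposite strand, had 117, 109, 168, 128 and 188 CPM in STZ-macrophage co-culture, 84.6, 69.6, 180.4 and 111 CPM in control-macrophage co-culture and 126, 203, 213 and 243 CPM in cells alone, and both co-cultures overlapped with cells alone. It fell by 0.94 on the log2 scale in control-macrophage co-culture (SE 0.32, adjusted p = 0.0287, edgeR) and stood at -0.64 in STZ-macrophage co-culture (adjusted p = 0.125). The call of mt-Nd6 in control-macrophage co-culture was lost when control-macrophage replicate 1, 2 or 4, or cells-alone replicate 3 or 4, was left out, with log2 fold changes of -1.10 to -0.73 and adjusted p of 0.00602 to 0.106 over the libraries of both groups left out singly. Because the kit does not keep the strand, reads from mt-Nd6 and from RNA opposite to it cannot be told apart, and its last 14 bases overlap with mt-Nd5.

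The other 11 mRNAs did not pass the test in either comparison. Their log2 fold changes against cells alone lay between -0.61 and 0.27 in control-macrophage co-culture, with adjusted p of 0.108 to 0.934. mt-Nd5 and mt-Nd4, both of complex I, stood lowest, at -0.61 (adjusted p = 0.108) and -0.57 (adjusted p = 0.141) in control-macrophage co-culture and -0.56 and -0.38 in STZ-macrophage co-culture (adjusted p = 0.150 and 0.342). mt-Co1, mt-Co2 and mt-Co3 stood at -0.39, -0.059 and 0.035 in control-macrophage co-culture and at -0.41, 0.078 and 0.037 in STZ-macrophage co-culture. The values of mt-Nd1, mt-Nd4l and mt-Cytb were -0.15, -0.32 and -0.29 in STZ-macrophage co-culture, and -0.20, -0.38 and -0.27 in control-macrophage co-culture. mt-Atp8 and mt-Atp6 stood at 0.020 and -0.16 in STZ-macrophage co-culture, and at -0.24 and -0.20 in control-macrophage co-culture. mt-Nd3 went the other way: it had 10.7, 9.36, 13.97, 10.6 and 13.5 CPM in STZ-macrophage co-culture, all above the 6.42, 5.66, 7.95 and 7.46 CPM in cells alone, with a log2 fold change of 0.56 that did not pass (SE 0.39, adjusted p = 0.264). With the counts of its nuclear copy added the groups overlapped, at 68.4 to 111 CPM in STZ-macrophage co-culture and 41.4 to 77.4 CPM in cells alone. In day 1 alone, 6 members were called lower in control-macrophage co-culture, where mt-Nd4 (-0.78, adjusted p = 0.0307) and mt-Nd5 (-0.80, adjusted p = 0.0302) joined the 4, against 44.9% of all genes called there and 21.8% called lower. In STZ-macrophage co-culture the 2 rRNAs alone were called in day 1, with 38.8% of all genes called.

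These calls differed with the table, the fit and the scaling used. The run on the deposited log2 table changed the table, the tool and the genes tested together, and their parts cannot be told apart. In the authors' deposited log2 table, which had been adjusted in a way not given in the sources used here, limma called none of the 15 mRNAs and rRNAs in either comparison, against 70.7% of all genes of that table in control-macrophage and 56.2% in STZ-macrophage co-culture. mt-Rnr1 stood there at -0.64 in control-macrophage co-culture (adjusted p = 0.0922) and -0.52 in STZ-macrophage co-culture (adjusted p = 0.231), mt-Rnr2 at -0.40 and -0.23 (adjusted p = 0.293 and 0.608), and mt-Nd2 in STZ-macrophage co-culture at 0.0023 (adjusted p = 0.996). A fit of STZ-macrophage co-culture and cells alone, without the control-macrophage libraries, called mt-Rnr1 (-1.40, adjusted p = 0.0206) and neither mt-Rnr2 (-0.93, adjusted p = 0.0698) nor mt-Nd2, against 33.4% of all genes. With library totals in place of TMM scaling, which moved the median over all genes to -0.45 in control-macrophage co-culture against cells alone, 7 members were called lower there, mt-Co1, mt-Nd4 and mt-Nd5 beside the 4, against 29.4% of all genes called lower and 47.9% called in either direction.

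Relative to the mitochondrial mRNAs themselves, the rRNAs were the clearest to differ. The rRNAs made up 12.6 ± 1.7% of all mitochondrially encoded counts in STZ-macrophage co-culture (10.7% to 14.1%), 12.3 ± 1.4% in control-macrophage co-culture (11.3% to 14.4%) and 23.3 ± 4.9% in cells alone (18.7% to 30.2%). The co-cultures and cells alone did not overlap. All 37 members together took 1.48 ± 0.21% of a library's counts in STZ-macrophage co-culture, 1.20 ± 0.40% in control-macrophage co-culture and 1.97 ± 0.50% in cells alone, with overlapping ranges of 1.15% to 1.73%, 0.771% to 1.73% and 1.45% to 2.49%. mt-Nd2 held 1.75% to 2.04% of the mRNA counts in STZ-macrophage co-culture, 1.47% to 1.72% in control-macrophage co-culture and 2.42% to 3.21% in cells alone, and the 3 ranges were separate. Those of mt-Nd6 overlapped, at 0.922% to 1.31%, 0.746% to 1.22% and 1.21% to 2.29% in the same order. mt-Nd2 and mt-Nd6 are the mRNAs already called above in the same data. Shares of the other single mRNAs were not compared, so how often such ranges separate is not known. Between the co-cultures mt-Nd2 was not called relative to the mRNA pool (log2 fold change 0.20, edgeR, described below). These shares are descriptions of sums over the members and were given no test.

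**Figure D3:**
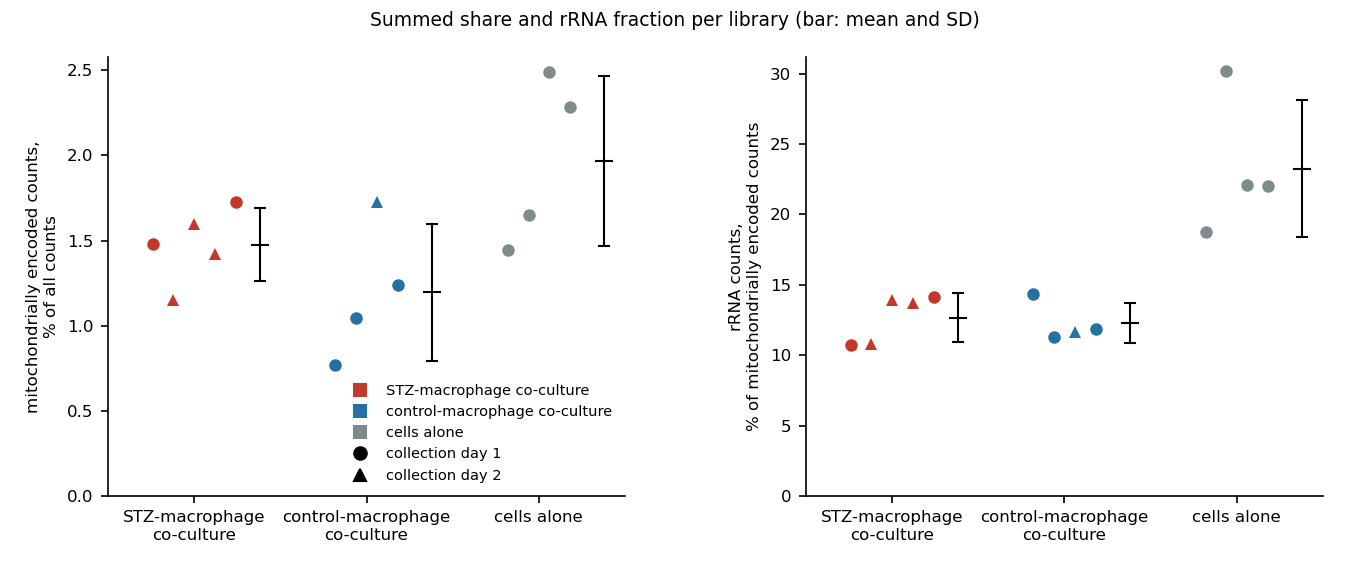
Percent of counts per library, with the mean and SD of each group and collection day given by the marker: all mitochondrially encoded members as a share of the library's counts (left), and the rRNAs as a share of the members' counts (right). The rRNA share lies between 10.7% and 14.4% in the 9 co-cultures and between 18.7% and 30.2% in the 4 libraries of cells alone.

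The same test with the summed mRNA counts of the mitochondrial genome as library size, a choice made after the data were seen, compares each member with that pool. In control-macrophage co-culture against cells alone 3 members were lower relative to the pool, mt-Rnr1 at -1.48 on the log2 scale (adjusted p = 0.00152, edgeR), mt-Rnr2 at -1.10 (adjusted p = 0.00283) and mt-Nd2 at -0.78 (adjusted p = 0.00866), and 12.5% of all genes were called lower on that scale. In STZ-macrophage co-culture against cells alone the rRNAs were lower, at -1.49 for mt-Rnr1 (adjusted p = 0.00415) and -1.04 for mt-Rnr2 (adjusted p = 0.00939), with 11.9% of all genes called lower, and mt-Nd2 stood at -0.58 (adjusted p = 0.0662). The call of mt-Rnr2 there was lost without STZ-macrophage replicate 1 (-0.89, adjusted p = 0.0649). mt-Nd6 stood at -0.70 in control-macrophage co-culture (adjusted p = 0.0670) and -0.48 in STZ-macrophage co-culture. Between STZ-macrophage and control-macrophage co-culture 0 of 16 were called on this scale by edgeR, 0 had an unadjusted p under 0.05, and the 15 mRNAs and rRNAs lay between -0.06 and 0.27; no gene of the table was called there (0%).

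By respiratory complex, the mRNA counts with those of the nuclear copies added were divided in similar proportions. Complex I took 20.7 ± 1.4% in STZ-macrophage co-culture, 18.9 ± 0.85% in control-macrophage co-culture and 21.02 ± 1.4% in cells alone. Complex IV took 48.8 ± 0.93%, 49.9 ± 0.83% and 47.2 ± 2.2% in that order, and complex V 19.2 ± 0.98%, 19.5 ± 0.56% and 19.98 ± 0.73%. Complex III, which is mt-Cytb alone, took 11.3 ± 0.21%, 11.7 ± 0.15% and 11.8 ± 0.28%. For each of the 4 complexes the ranges of the groups overlapped.

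Malat1, a long noncoding RNA kept in the nucleus, moved with the contrast to cells alone. It took 0.0394 ± 0.0075% of counts in STZ-macrophage co-culture, 0.0494 ± 0.0099% in control-macrophage co-culture and 0.592 ± 0.222% in cells alone. Malat1 is not mitochondrially encoded, its shares are descriptions without a test, and any link to the lower rRNA counts was not tested.

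The members' day term had 1 sign throughout, and none passed the test. The day 2 minus day 1 term, which rests on the 9 co-cultures, was positive for 15 of the 15 mRNAs and rRNAs, between 0.09 and 0.65 on the log2 scale, with 0 of 16 called by edgeR (adjusted p of 0.147 to 0.887) against 3.15% of all genes (2.10% higher and 1.05% lower). At an unadjusted p under 0.05 there were 2. Without control-macrophage replicate 3 the day term was positive for 2 of 15, between -0.51 and 0.05.

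Within day 1, the fitted mean of the STZ-macrophage libraries exceeded that of the control-macrophage libraries in all 15 mRNAs and rRNAs, by 0.41 to 0.79 on the log2 scale. Single libraries could overlap: mt-Co1 had 2425 CPM in STZ-macrophage replicate 1 and 2477 CPM in control-macrophage replicate 4. On day 1, 0 of 16 members were called by edgeR (adjusted p of 0.194 to 0.575, 3 at an unadjusted p under 0.05) against 0.215% of all genes (0.171% higher and 0.0444% lower). Within day 2, control-macrophage replicate 3 is the one control library and is assumed to vary like the others. There the fitted mean of the STZ-macrophage libraries was lower in all 15, with log2 fold changes of -0.74 to -0.39. For mt-Atp8, STZ-macrophage replicate 3 (139.2 CPM) still lay above control-macrophage replicate 3 (138.5 CPM). The test of the difference, day 2 minus day 1, gave -1.23 to -0.88 for the 15, with adjusted p of 0.316 to 0.766. It called 0 of 16 by edgeR against 0.00634% of all genes, with 9 at an unadjusted p under 0.05. A fit of the 2 co-culture groups alone called 1 of 16, mt-Nd2 at -1.08 (adjusted p = 0.0408), against 12.1% of all genes, so that the members were called no more often than genes at large. mt-Nd2 had 221 and 269.8 CPM in the STZ-macrophage libraries of day 1 and 118, 141 and 177 CPM in the control-macrophage libraries of day 1. On day 2 it had 227, 303 and 233 CPM in the STZ-macrophage libraries and 354 CPM in the control-macrophage library. The day and the single control-macrophage library of day 2 cannot be told apart.

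Counts given to nuclear copies were large for some members. A search of the annotated transcripts found 16 copies that have an entry in the count table used here, of which 9 passed the filter, and 11 of the 13 mRNAs had at least 1 copy. Of the counts of a member and its copies together, the copies held 84.5% to 91.0% for mt-Nd3 over the 13 libraries, 40.3% to 52.5% for mt-Atp6, 27.9% to 39.6% for mt-Co3, 25.1% to 35.2% for mt-Co2 and 14.0% to 20.9% for mt-Co1. For mt-Nd4l they held 3.60% to 18.1% and for mt-Nd4 0.400% to 1.35%. The 4 transcripts called lower were nearly free of this: the copies held at most 0.127% for mt-Nd2 and 0% for mt-Nd6, and the rRNAs had no copy in the search. Whether the NOD genome carries the chromosome 1 copies as the reference does was not tested.

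**Figure D4:**
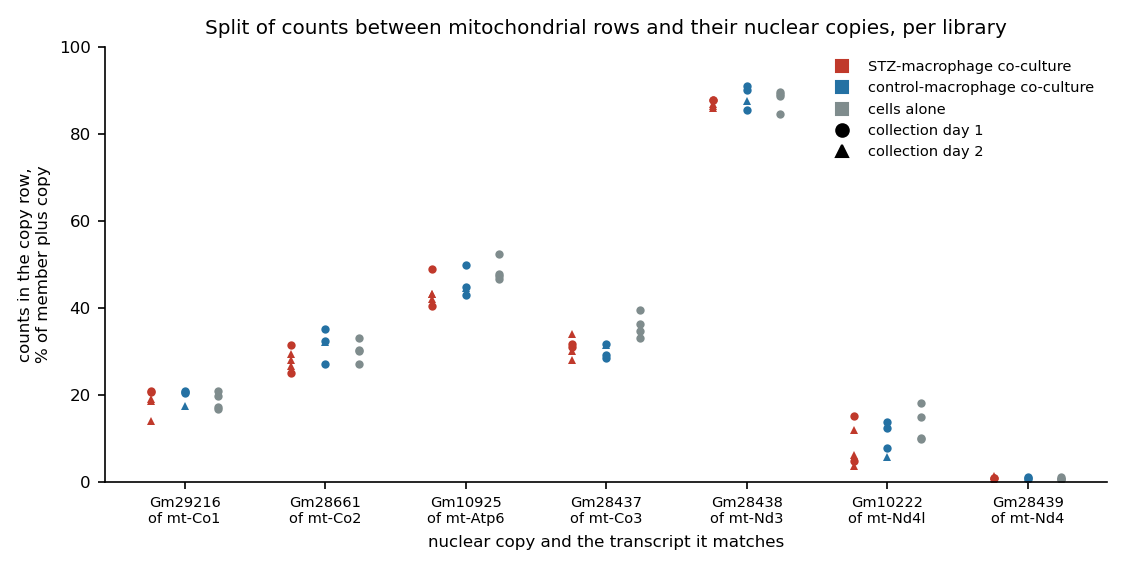
Percent of the counts of a mitochondrial mRNA and its nuclear copies that the deposited table gives to the copies, 1 point per library, with the STZ-macrophage co-culture first and cells alone last for each member. mt-Nd3 stands highest, at 84.5% to 91.0%, and mt-Nd4 lies at 0.400% to 1.35%.

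None of the 9 tested copies passed the test in the 3 comparisons. Of all genes, 0.323% were called between the co-cultures, 45.0% in control-macrophage and 43.1% in STZ-macrophage co-culture against cells alone. Gm28438, the copy of mt-Nd3, stood at 0.17 between STZ-macrophage and control-macrophage co-culture, 0.28 between control-macrophage co-culture and cells alone and 0.45 between STZ-macrophage co-culture and cells alone. Those of mt-Atp6, mt-Co3, mt-Co2 and mt-Co1, named Gm10925, Gm28437, Gm28661 and Gm29216, stood at -0.37, -0.30, -0.058 and -0.20 in STZ-macrophage co-culture against cells alone, and at -0.37, -0.34, 0.088 and -0.19 in control-macrophage co-culture against cells alone. Gm28439 and Gm10222, copies of mt-Nd4 and mt-Nd4l, stood at -0.12 and -0.64 in STZ-macrophage co-culture against cells alone. On chromosome 2, Gm13340 and Gm13341, copies of mt-Co1 and mt-Co2, stood at -0.46 and 0.14 there. With copies added to their members, the numbers of members called in the 3 comparisons were 0, 4 and 3, as without them, and mt-Nd3 stood at 0.47 in STZ-macrophage co-culture against cells alone.

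The tRNAs were close to absent from these libraries. All 22 together gave 511 counts over the 13 libraries, 266 of them from mt-Tq, the glutamine tRNA, and 5 (mt-Td, mt-Tg, mt-Tr, mt-Tl2 and mt-Te) had no count in any library. The 16 others not tested had totals of 1 to 55 counts and at most 12 in a library. mt-Tq had 0.661, 0.133, 1.15, 0.739 and 0.970 CPM in STZ-macrophage co-culture, 0.654, 0.493, 0.925 and 0.725 CPM in control-macrophage co-culture and 0.0307, 0.755, 0.268 and 0.0877 CPM in cells alone. Of the 9 co-culture libraries, 8 lay above 3 of the 4 libraries of cells alone, while cells-alone replicate 2 lay among them. Its log2 fold changes were 0.048 between STZ-macrophage and control-macrophage co-culture, 1.30 between control-macrophage co-culture and cells alone (adjusted p = 0.258, edgeR) and 1.35 between STZ-macrophage co-culture and cells alone (adjusted p = 0.261). mt-Tq passed the filter on low counts through the co-cultures, where it had 7 to 39 counts a library, against 1, 17, 12 and 3 counts in cells alone, so its level there is a description at this depth. Without cells-alone replicate 2, the library that lay among the co-cultures, an adjusted p under 0.05 was reached in both. The fitted log2 fold changes of mt-Tq were then 2.34 in control-macrophage co-culture (adjusted p = 0.0483, edgeR) and 2.58 in STZ-macrophage co-culture (adjusted p = 0.0345). These values rest on 1, 12 and 3 counts in the cells alone that remain and on a filter passed through the co-cultures. No rise of mt-Tq is read from them. It overlaps by 3 bases with the tRNA mt-Ti on the other strand.

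Subunits of the same complexes that are encoded in the nucleus moved the other way from the called members. In STZ-macrophage co-culture against cells alone, 19 of 36 nuclear-encoded subunits of complex I rose, 4 of 9 of complex III, 7 of 11 of complex IV and 12 of 18 of complex V, and none fell, against 20.8% of all genes called higher and 22.3% called lower. In control-macrophage co-culture the numbers were 27 of 36, 5 of 9, 7 of 11 and 14 of 18, again with none lower, against 23.1% of all genes called higher and 22.0% called lower. Their median log2 fold changes for complexes I, III, IV and V were 0.76, 0.92, 1.28 and 1.12 in STZ-macrophage co-culture and 1.06, 0.92, 1.11 and 1.37 in control-macrophage co-culture. Between STZ-macrophage and control-macrophage co-culture none of the 74 was called.

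Cox6c, a structural subunit of cytochrome c oxidase, averaged 262 ± 46.5 CPM in STZ-macrophage co-culture, 350.5 ± 81.4 CPM in control-macrophage co-culture and 88.8 ± 14.1 CPM in cells alone. Ndufs8, an iron-sulfur subunit of complex I, averaged 146 ± 25.1, 186 ± 17.97 and 56.2 ± 8.61 CPM in the same groups. Both co-cultures lay above cells alone for both genes. Uqcr10 of complex III averaged 212 ± 36.9, 242 ± 37.2 and 82.3 ± 9.78 CPM. Atpif1, the inhibitor protein of ATP synthase, averaged 148 ± 17.02 CPM in STZ-macrophage co-culture, 164 ± 12.6 CPM in control-macrophage co-culture and 27.7 ± 7.61 CPM in cells alone. Its log2 fold changes against cells alone were 2.38 in STZ-macrophage co-culture and 2.55 in control-macrophage co-culture.

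Other subunits with small p-values rose as well. In STZ-macrophage co-culture against cells alone these were Ndufc2 (1.92), Ndufb6 (1.61) and Ndufc1 (1.87) of complex I, Uqcrq (2.97), Uqcr11 (0.96) and Uqcrb (0.92) of complex III, Cox7b (1.28), Cox7a2 (1.15) and Cox4i1 (0.98) of complex IV, and Atp5pb (1.68), Atp5e (1.37) and Atp5j (1.11) of complex V, as log2 fold changes. In control-macrophage co-culture against cells alone they were Ndufc2 (1.96), Ndufa12 (1.70) and Ndufb7 (1.40), Uqcrb (1.53), Uqcr11 (1.16) and Uqcrh (0.92), Cox7c (1.76), Cox7a2 (1.75) and Cox7b (1.74), and Atp5j (1.73), Atp5k (1.71) and Atp5e (1.50). All of these passed the test.

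**Figure D5:**
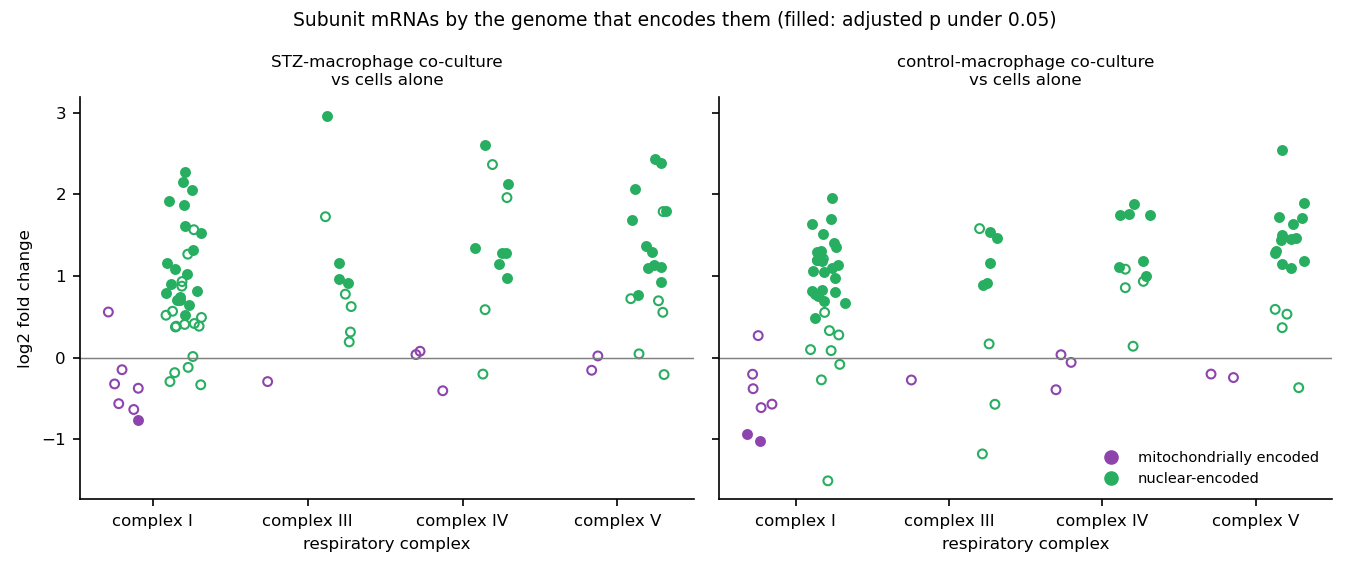
Log2 fold change against cells alone of the subunits of complexes I, III, IV and V, with those encoded in the mitochondrial genome beside those encoded in the nucleus, for the STZ-macrophage and the control-macrophage co-culture. Filled points passed an adjusted p of 0.05: among the nuclear-encoded subunits all filled points lie above 0, and among the mitochondrially encoded ones the filled points (mt-Nd2, and mt-Nd6 in control-macrophage co-culture) lie below 0.

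Genes that act on mitochondrial DNA and RNA went both ways, in a background where 20.8% of all genes tested rose and 22.3% fell in STZ-macrophage co-culture against cells alone, and 23.1% rose and 22.0% fell in control-macrophage co-culture. Of 10 nuclear genes of mitochondrial transcription, 4 fell and none rose in STZ-macrophage co-culture against cells alone, and 3 fell and 2 rose in control-macrophage co-culture. The genes that fell were Mterf3, which in mice is known to restrain transcription of mitochondrial DNA (-1.07 in STZ-macrophage and -0.71 in control-macrophage co-culture), and its relatives Mterf1a (-1.97 in STZ-macrophage, -1.09 in control-macrophage co-culture) and Mterf1b (-1.85 in STZ-macrophage, -1.04 in control-macrophage co-culture), near-identical genes between which counts may be split uncertainly. Mterf2 fell by 1.02 in STZ-macrophage co-culture. In control-macrophage co-culture Tfb1m, a methyltransferase of the small rRNA that is also counted among the processing genes, rose by 0.64. The polymerase Polrmt was not called: it averaged 13.04 ± 15.7 CPM in STZ-macrophage co-culture, 2.65 ± 1.93 CPM in control-macrophage co-culture and 18.4 ± 23.1 CPM in cells alone, so that the SD exceeded the mean in STZ-macrophage co-culture and in cells alone. Tfam, which packages mitochondrial DNA and starts its transcription, stood at 1.18 in STZ-macrophage co-culture (adjusted p = 0.102) and 0.54 in control-macrophage co-culture (adjusted p = 0.380).

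Of 14 genes of mitochondrial DNA replication and maintenance, 2 rose and 4 fell in STZ-macrophage co-culture against cells alone, and 3 rose and 5 fell in control-macrophage co-culture, beside 20.8% of all genes that rose and 22.3% that fell in STZ-macrophage, and 23.1% and 22.0% in control-macrophage co-culture. Polg, the catalytic subunit of the mitochondrial DNA polymerase, fell by 2.36 on the log2 scale in STZ-macrophage and by 2.80 in control-macrophage co-culture, with 13.3 ± 8.27 CPM in STZ-macrophage co-culture, 10.7 ± 1.51 CPM in control-macrophage co-culture and 86.3 ± 67.4 CPM in cells alone. Rrm2b, which supplies nucleotides for it, stood at -0.91 in STZ-macrophage and -1.14 in control-macrophage co-culture, both called. The nucleases Dna2 (6.09 in STZ-macrophage, 4.93 in control-macrophage co-culture) and Mgme1 (1.04 in STZ-macrophage, 1.61 in control-macrophage co-culture) rose in both. Twnk, the helicase, fell by 0.63 in control-macrophage co-culture (adjusted p = 0.0433) and stood at -0.57 in STZ-macrophage co-culture (adjusted p = 0.0946).

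RNA processing, modification and decay genes were divided too. Of 29 genes of processing and modification, 2 rose and 9 fell in STZ-macrophage co-culture against cells alone, and 4 rose and 6 fell in control-macrophage co-culture, beside 20.8% of all genes that rose and 22.3% that fell in STZ-macrophage, and 23.1% and 22.0% in control-macrophage co-culture. Among them Tbrg4 rose by 1.94 in STZ-macrophage and 1.20 in control-macrophage co-culture, and Rpusd4, which in human cells modifies the large rRNA, stood at -1.12 in STZ-macrophage and -0.70 in control-macrophage co-culture, called in both. Nsun4, a methyltransferase of the small rRNA, fell by 1.10 and Fastkd3 by 1.09 in STZ-macrophage co-culture. In control-macrophage co-culture Mrm1, in human cells a methyltransferase of the large rRNA, fell by 1.94 and Fastkd2, which in human cells binds the large rRNA, rose by 1.36.

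Of 9 genes of RNA stability and decay, 2 rose and 1 fell in STZ-macrophage co-culture against cells alone, and 2 rose and none fell in control-macrophage co-culture, beside 20.8% of all genes that rose and 22.3% that fell in STZ-macrophage, and 23.1% and 22.0% in control-macrophage co-culture. Rexo2, in human cells an exonuclease of very short mitochondrial RNAs, averaged 135 ± 25.8 CPM in STZ-macrophage co-culture, 179 ± 20.8 CPM in control-macrophage co-culture and 30.3 ± 25.7 CPM in cells alone, with log2 fold changes of 2.21 in STZ-macrophage and 2.60 in control-macrophage co-culture. Pnpt1, a further exonuclease, rose by 1.97 and Ptcd1 fell by 0.76 in STZ-macrophage co-culture. Slirp, which stabilises mitochondrial mRNAs together with Lrpprc, rose by 1.16 in control-macrophage co-culture (adjusted p = 0.00125, edgeR) and stood at 0.57 in STZ-macrophage co-culture (adjusted p = 0.0776). Lrpprc itself stood at -1.23 in control-macrophage (adjusted p = 0.0784) and -0.43 in STZ-macrophage co-culture (adjusted p = 0.529).

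Of 8 tested regulators of mitochondrial biogenesis, 1 rose and 3 fell in STZ-macrophage co-culture against cells alone, and none rose and 3 fell in control-macrophage co-culture, beside 20.8% of all genes that rose and 22.3% that fell in STZ-macrophage, and 23.1% and 22.0% in control-macrophage co-culture. Ppargc1b, a coactivator of nuclear genes for mitochondria, averaged 6.07 ± 0.937 CPM in STZ-macrophage co-culture, 6.004 ± 2.89 CPM in control-macrophage co-culture and 27.8 ± 10.96 CPM in cells alone. It fell by 1.87 on the log2 scale in STZ-macrophage (adjusted p = 0.0146) and by 2.17 in control-macrophage co-culture (adjusted p = 0.00134). The factors Esrra (-1.84 in STZ-macrophage, -1.90 in control-macrophage co-culture) and Yy1 (-1.61 in STZ-macrophage, -1.25 in control-macrophage co-culture) fell in both, and Myc rose by 2.71 in STZ-macrophage co-culture. Between STZ-macrophage and control-macrophage co-culture none of the 70 genes on these lists was called. There, Polrmt stood at 1.95 (adjusted p = 0.209), Lrpprc at 0.80 (0.314), Tfam at 0.64 (0.441), Slirp at -0.59 (0.173), Ppargc1b at 0.29 (0.717) and Twnk at 0.059 (0.888), with the adjusted p in parentheses.

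Within groups, most members went up and down together from library to library. Over the 13 libraries, after the group means were removed, the Pearson correlation of a member's log2 CPM with the summed other members was 0.998 for mt-Nd4, 0.990 for mt-Cytb and 0.989 for mt-Co2. It was 0.834 for mt-Rnr2, 0.822 for mt-Nd6, 0.809 for mt-Rnr1, 0.578 for mt-Atp8 and 0.211 for mt-Tq. The nuclear genes most like the summed members by the same measure were Gm12598 (0.965), Prelid2 (0.953), Tceal9 (0.947), Ppp3cc (0.946) and Gm14718 (0.945). These are descriptions over 13 libraries that share scaling and composition, and they carry no test.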

How the data were processed

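RNA of 13 CD4+ T cell libraries was profiled by bulk RNA-seq. Per the labels' protocols, 10 ng of RNA went into a SMARTer Ultra Low kit, which starts from stretches of A and keeps no strand, and paired reads of 150 bases were aligned to GRCm38. The submitters' processing notes name DESeq2 and GRCm38; for the aligner and the counting program no source used here gives a name. The authors deposited estimated counts per gene without normalization, which were rounded, and, for 12236 genes, a table of log2 values adjusted by them in a way no source used here describes, an alternative tested with limma 3.58.1.

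The tests ran in edgeR 4.0.16 (R 4.3.3): filterByExpr by group (15781 genes), TMM scaling, terms for group and collection day over all 13 libraries, robust quasi-likelihood F tests, Benjamini-Hochberg adjustment over all genes tested, called at an adjusted p under 0.05. Standard errors were derived from F and the log2 fold change (its size divided by the root of F). CPM are counts over the library total times its TMM factor, and shares are of plain totals. The libraries carry no molecular identifiers, so a floor of 3 counts covers counting error only. Effects within days come from a fit that has separate means for each group on each day. Fits were checked on simulated counts.

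Nuclear copies were sought with blastn 2.17.0 among GRCm38 gene-annotation transcripts, at 90% identity or more over at least 100 bases. The 13 mRNAs and both rRNAs are named in every group comparison, with the tested tRNA and copies, up to 4 called genes of each list with the smallest unadjusted p, and Polrmt, Tfam, Lrpprc, Slirp, Twnk and Ppargc1b. The members and the lists were chosen with earlier results of these data known. No column was left unmatched to a sample.

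Replicate numbers are shared between groups. After group means were taken off, libraries correlated over 8123 genes at 0.323 to 0.608 in all 4 same-numbered pairs of control-macrophage co-culture and cells alone. Pairs with unlike numbers spanned -0.783 to 0.717, the highest between control-macrophage replicate 3 and cells-alone replicate 4. Pairing by number is therefore uncertain, and the labels do not give it. The main fit has no replicate block. Alternatives were other scaling, filters, tools and samples, a replicate block, a GC offset, library sizes from the mitochondrial mRNAs, and nuclear copies added to the members; these last 2, and leaving out 2 libraries with islet transcripts, were chosen after seeing the data.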

Additional observations from a re-analysis of the deposited data

Results flagged for a closer look

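In control-macrophage replicate 3, complex I took 20.1% of the mRNA counts of the mitochondrial genome and its nuclear copies, against 18.4% to 18.5% in the other 3 control-macrophage libraries, a gap that sets it apart from its group. It is also the only control-macrophage library of day 2, and the STZ-macrophage libraries were split by day too, at 21.3% to 21.99% in the 3 of day 2 and 19.15% to 19.2% in the 2 of day 1. Cells alone, all of day 1, held 19.5% to 22.7%. Such a gap was looked for in 102 groups of libraries, and chance alone gives one in about 1 of 20 groups.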

How the results depend on the processing

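The calls of mt-Rnr1, mt-Rnr2 and mt-Nd2 in control-macrophage co-culture against cells alone held under every alternative compared except the authors' deposited log2 table. There 0 members were called in that comparison and 0 in STZ-macrophage co-culture against cells alone; the cause was not tested. With library totals alone 7 were called in control-macrophage co-culture. With the 2 groups alone in the fit 1 was called in STZ-macrophage co-culture against cells alone and 1 in the difference between days. Relative to the mRNA pool, 1 was called in STZ-macrophage co-culture against cells alone without STZ-macrophage replicate 1. With nuclear copies the summed share was 1.82% in STZ-macrophage co-culture. For each comparison of groups, only libraries of those groups were left out in turn. With 1 such library left out, 3 to 6 members were called in control-macrophage co-culture against cells alone, 2 to 4 in STZ-macrophage co-culture against cells alone and 0 between the co-cultures, and relative to the mRNA pool 3 to 4 and 1 to 3 against cells alone. With no library left out, 45.0%, 43.1% and 0.323% of all genes were called in these 3 comparisons. Relative to the mRNA pool, 35.9% and 27.3% were called against cells alone. With the replicate number as a block, the 4 calls in control-macrophage co-culture remained (mt-Rnr1 at -1.59, mt-Rnr2 at -1.27, mt-Nd2 at -0.98 and mt-Nd6 at -0.93), and mt-Nd2 in STZ-macrophage co-culture against cells alone was lost (-0.68, adjusted p = 0.152, edgeR). That block tied STZ-macrophage libraries to the others by number too, a pairing that the labels do not give. STZ-macrophage replicate 5 shares its number with no other library, so it carried no weight in that fit. For STZ-macrophage replicates 1 to 4, correlations with the same-numbered control-macrophage library were 0.286, -0.325, 0.709 and 0.450. With the cells-alone library of the same number they were 0.103, -0.612, 0.623 and 0.494.

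Members changed sign under several settings, and the cause was not tested; of those called, mt-Nd2 did so in STZ-macrophage co-culture against cells alone, in the deposited log2 table. With DESeq2, the sign changed for mt-Co1 at 0.089 and mt-Cytb at 0.083 in STZ-macrophage against control-macrophage co-culture. With an offset for GC content, the sign changed for mt-Nd1 at 0.30, mt-Atp6 at 0.30, mt-Nd4l at 0.0083, mt-Nd4 at 0.068 and mt-Cytb at 0.15 in STZ-macrophage co-culture against cells alone, for mt-Co1 at 0.34 and mt-Cytb at 0.41 in STZ-macrophage against control-macrophage co-culture. With RLE scaling, the sign changed for mt-Tq at -0.00092 in the day term, for mt-Co1 at 0.089 and mt-Cytb at 0.083 in STZ-macrophage against control-macrophage co-culture. In the authors' deposited log2 table, the sign changed for mt-Nd1 at 0.86, mt-Nd2 at 0.0023, mt-Co1 at 0.080, mt-Atp6 at 0.62, mt-Nd4l at 0.91, mt-Nd4 at 0.42, mt-Nd5 at 0.27, mt-Nd6 at 0.19 and mt-Cytb at 0.36 in STZ-macrophage co-culture against cells alone, for mt-Co1 at 0.038 and mt-Cytb at 0.034 in STZ-macrophage against control-macrophage co-culture, for mt-Nd1 at 0.75, mt-Co1 at 0.041, mt-Co2 at 0.57, mt-Atp8 at 0.50, mt-Atp6 at 0.51, mt-Nd4l at 0.80, mt-Nd4 at 0.18, mt-Nd5 at 0.16 and mt-Cytb at 0.32 in control-macrophage co-culture against cells alone. With library totals alone, the sign changed for mt-Atp8 at -0.14 and mt-Tq at -0.17 in the day term, for mt-Co2 at -0.025, mt-Atp8 at -0.12 and mt-Co3 at -0.063 in STZ-macrophage co-culture against cells alone, for mt-Co1 at 0.20 and mt-Cytb at 0.19 in STZ-macrophage against control-macrophage co-culture, for mt-Co3 at -0.28 and mt-Nd3 at -0.065 in control-macrophage co-culture against cells alone. Without the day term, the sign changed for mt-Nd1 at 0.23 and mt-Atp6 at 0.036 in STZ-macrophage co-culture against cells alone, for mt-Co1 at 0.057 and mt-Cytb at 0.043 in STZ-macrophage against control-macrophage co-culture, for mt-Nd1 at 0.060 and mt-Co2 at 0.082 in control-macrophage co-culture against cells alone. Without the filter, the sign changed for mt-Nd1 at 0.12 and mt-Atp6 at 0.12 in STZ-macrophage co-culture against cells alone, for mt-Co1 at 0.19 and mt-Cytb at 0.18 in STZ-macrophage against control-macrophage co-culture, for mt-Co2 at 0.013 in control-macrophage co-culture against cells alone. With nuclear copies added, the sign changed for mt-Co3 at -0.073 in STZ-macrophage co-culture against cells alone, for mt-Co3 at -0.089 in control-macrophage co-culture against cells alone, for mt-Atp6 at -0.012 in STZ-macrophage co-culture against cells alone relative to the mRNA pool, for mt-Atp6 at -0.0011 and mt-Rnr1 at 0.0075 in STZ-macrophage against control-macrophage co-culture relative to the mRNA pool, for mt-Atp6 at -0.011 in control-macrophage co-culture against cells alone relative to the mRNA pool. With the 2 groups alone in the fit, the sign changed for mt-Nd1 at 0.17, mt-Atp6 at 0.18 and mt-Cytb at 0.039 in STZ-macrophage co-culture against cells alone, for mt-Co1 at 0.18 and mt-Cytb at 0.17 in STZ-macrophage against control-macrophage co-culture, for mt-Co3 at -0.18 in control-macrophage co-culture against cells alone. With the replicate number as a block, the sign changed for mt-Nd1 at 0.15 and mt-Atp6 at 0.26 in STZ-macrophage co-culture against cells alone, for mt-Cytb at 0.10 in STZ-macrophage against control-macrophage co-culture, for mt-Co2 at 0.024 in control-macrophage co-culture against cells alone. Without STZ-macrophage replicates 2 and 4, the sign changed for mt-Nd1 at 0.17, mt-Atp6 at 0.16 and mt-Cytb at 0.025 in STZ-macrophage co-culture against cells alone, for mt-Co1 at 0.34 and mt-Cytb at 0.35 in STZ-macrophage against control-macrophage co-culture.

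With 1 library left out at a time, the log2 fold changes that took either sign spanned, for the day term mt-Nd2 -0.091 to 0.74, mt-Co1 -0.20 to 0.58, mt-Co2 -0.28 to 0.57, mt-Atp8 -0.51 to 0.36, mt-Atp6 -0.29 to 0.49, mt-Co3 -0.24 to 0.55, mt-Nd3 -0.24 to 0.56, mt-Nd4 -0.23 to 0.56, mt-Nd5 -0.018 to 0.71, mt-Nd6 -0.31 to 0.62, mt-Cytb -0.25 to 0.53, mt-Rnr1 -0.15 to 0.58, mt-Rnr2 -0.14 to 0.70 and mt-Tq -0.43 to 0.37. They spanned, for STZ-macrophage co-culture against cells alone mt-Nd1 -0.34 to 0.25, mt-Co2 -0.20 to 0.45, mt-Atp8 -0.33 to 0.39, mt-Atp6 -0.35 to 0.27, mt-Co3 -0.19 to 0.48, mt-Nd4l -0.61 to 0.0040 and mt-Cytb -0.50 to 0.086. They spanned, for STZ-macrophage against control-macrophage co-culture mt-Nd1 -0.10 to 0.68, mt-Co1 -0.20 to 0.60, mt-Co2 -0.072 to 0.80, mt-Atp8 -0.0011 to 0.88, mt-Atp6 -0.13 to 0.71, mt-Co3 -0.17 to 0.64, mt-Nd4l -0.16 to 0.57, mt-Nd5 -0.11 to 0.64, mt-Nd6 -0.0096 to 0.94, mt-Cytb -0.17 to 0.63, mt-Rnr1 -0.16 to 0.59, mt-Rnr2 -0.15 to 0.71 and mt-Tq -0.19 to 0.54. They spanned, for control-macrophage co-culture against cells alone mt-Nd1 -0.36 to 0.034, mt-Co2 -0.23 to 0.15, mt-Atp8 -0.43 to 0.014, mt-Atp6 -0.38 to 0.063 and mt-Co3 -0.13 to 0.29. They spanned, for STZ-macrophage co-culture against cells alone relative to the mRNA pool mt-Atp8 -0.043 to 0.60, mt-Atp6 -0.019 to 0.17 and mt-Nd4l -0.25 to 0.046. They spanned, for STZ-macrophage against control-macrophage co-culture relative to the mRNA pool mt-Nd1 -0.00060 to 0.037, mt-Atp6 -0.062 to 0.086, mt-Nd4l -0.13 to 0.10, mt-Nd5 -0.039 to 0.016, mt-Rnr1 -0.12 to 0.12, mt-Rnr2 -0.047 to 0.18 and mt-Tq -0.26 to 0.10. They spanned, for control-macrophage co-culture against cells alone relative to the mRNA pool mt-Atp8 -0.26 to 0.41, mt-Nd4l -0.24 to 0.055 and mt-Cytb -0.019 to 0.0048.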
